A study of Mus musculus with 7 samples.

Results

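Rims1 and 8 further genes of the presynaptic active zone, Rims2, Bsn, Pclo, Unc13a, Unc13b, Erc1, Erc2 and Syt1, were followed in mouse embryonic stem cells in which the m6A methyltransferase Mettl3 was knocked down. Each gene was read from the probe sets whose platform annotation names it and no other gene. The 9 genes, of 22083 symbols on the array, had 389 of 1201338 probe sets: 47 for Rims1, 49 for Rims2, 42 for Bsn, 50 for Pclo, 59 for Unc13a, 58 for Unc13b, 35 for Erc1, 25 for Erc2 and 24 for Syt1. The genes were chosen with differences between knockdown and control arrays already known, so their values in that contrast are given as a description. Where a count of calls in that contrast is printed for them, it stands beside the share of all features called, and nothing is read from it.

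The study used J-1 mouse embryonic stem cells, all infected with lentiviruses that express a short hairpin RNA, and all grown in full medium. Hairpin 1 against Mettl3 was carried by 2 samples, hairpin 2 against Mettl3 by 2 samples and a hairpin against luciferase, a gene mouse cells do not have, by 3 samples. Total RNA of each sample was hybridised to 1 Affymetrix mouse exon array, on which separate probe sets interrogate separate stretches of a transcript. The labels give neither the time after infection nor any selection, nor do they say whether the samples of a group were separate cultures, so the spread between them may be technical.

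The active zone is the patch of presynaptic membrane where synaptic vesicles dock, are primed and fuse. RIM proteins (Rims1, Rims2) sit at its centre and bind Rab3 on vesicles, Munc13 priming factors (Unc13a, Unc13b) and calcium channels, while ELKS/CAST proteins (Erc1, Erc2) and the very large scaffolds Bassoon (Bsn) and Piccolo (Pclo) complete the protein lattice. Synaptotagmin 1 (Syt1) is the vesicle's calcium sensor for fast release. These genes are best known from neurons and endocrine cells, and embryonic stem cells form no synapses.

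The promoter windows of 3 of these genes are shown, as RefSeq gives them on GRCm38.p6, 300 bases each around the annotated start and mostly before it. Rims1 and Erc2 are shown because theirs were the member genes with the largest positive differences in both hairpin groups, and Unc13a because it holds a motif that no other member window holds. In the first 2 windows capitals mark the GC box GGGCGG or its reverse complement CCGCCC. In the Unc13a window capitals mark TCAGCACC and GGACAGC, the parts of the RE1 element bound by the repressor REST, here on the reverse strand as GGTGCTGA and GCTGTCC.
Rims1, chr1:22806109-22806408, minus strand: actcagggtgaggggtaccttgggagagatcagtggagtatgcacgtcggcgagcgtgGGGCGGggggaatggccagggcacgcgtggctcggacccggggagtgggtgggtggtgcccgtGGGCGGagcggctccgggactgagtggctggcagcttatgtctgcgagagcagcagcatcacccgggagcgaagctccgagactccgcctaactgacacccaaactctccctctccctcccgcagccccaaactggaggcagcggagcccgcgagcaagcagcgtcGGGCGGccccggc
Erc2, chr14:27622157-27622456, plus strand: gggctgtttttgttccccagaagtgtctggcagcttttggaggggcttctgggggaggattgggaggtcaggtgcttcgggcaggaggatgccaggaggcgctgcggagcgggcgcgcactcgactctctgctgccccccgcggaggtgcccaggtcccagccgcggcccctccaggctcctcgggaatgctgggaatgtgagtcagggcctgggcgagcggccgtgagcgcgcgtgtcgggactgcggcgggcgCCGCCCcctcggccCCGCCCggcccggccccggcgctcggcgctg
Unc13a, chr8:71671708-71672007, minus strand: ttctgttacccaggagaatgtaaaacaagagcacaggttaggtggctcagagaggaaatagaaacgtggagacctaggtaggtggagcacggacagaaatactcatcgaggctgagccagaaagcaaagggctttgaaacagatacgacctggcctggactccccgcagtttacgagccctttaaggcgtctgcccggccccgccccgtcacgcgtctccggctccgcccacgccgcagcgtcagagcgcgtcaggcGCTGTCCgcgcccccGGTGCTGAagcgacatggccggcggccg

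The Rims1 window held 3 GC boxes at 69.3% G and C with 26 CpG dinucleotides, and the Erc2 window held 2 GC boxes at 73.7% G and C with 31 CpG dinucleotides. The median over 32851 RefSeq promoter windows was 52.7% G and C with 7 CpG dinucleotides. A GC box on either strand was found in 35.7% of all windows, and among the members also in those of Pclo, Unc13a, Unc13b, Erc1 and 1 of 2 for Syt1, but not in that of Bsn. TCAGCACC was present in 1.65% of all windows, GGACAGC in 6.56% and both in 0.131%; the Unc13a window alone among the members held either of them. Rims2 was not matched to a window. No motif overlaps another, and a match or its absence describes only the letters of these windows. The deposited values place no probe set relative to a start site.

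Deposited values are log2 intensities after RMA, with array medians between 6.03 and 6.07. The gene value used below is the median, on each array, of a gene's probe sets whose mean over the 7 arrays exceeded 6.02, the median of all probe sets. All 9 genes reached the minimum of 3 such probe sets, which 315 of their 389 probe sets passed. Mettl3 itself had gene values of 8.97 and 8.67 with hairpin 1 and 8.71 and 8.66 with hairpin 2, against 10.38, 10.46 and 10.14 with luciferase. The labels of the hairpin groups are borne out by that gene in every array. On the second principal component, which held 21.4% of the variance of gene values, luciferase replicate 3 and hairpin 1 replicate 2 lay apart from the rest. Calls of named genes that were lost without these 2 arrays are given beside those genes.

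Rims1 had gene values of 7.83 and 8.19 with hairpin 1 and 8.06 and 8.18 with hairpin 2, against 7.62, 7.47 and 7.60 with luciferase, all on the log2 scale. All 4 knockdown arrays lay above all 3 luciferase arrays, and 13.4% of all genes were so placed. The group means were 8.01 ± 0.25 with hairpin 1 (SD, n = 2), 8.12 ± 0.08 with hairpin 2 (SD, n = 2) and 7.56 ± 0.08 with luciferase (SD, n = 3). The mean of both hairpins exceeded luciferase by 0.50 ± 0.10 (SE of the limma fit), a 1.42-fold difference. Hairpin 1 alone stood 0.45 above luciferase and hairpin 2 alone 0.56 above. More cells with the transcript and more transcript per cell cannot be told apart in RNA from a whole culture.

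**Figure D1:**
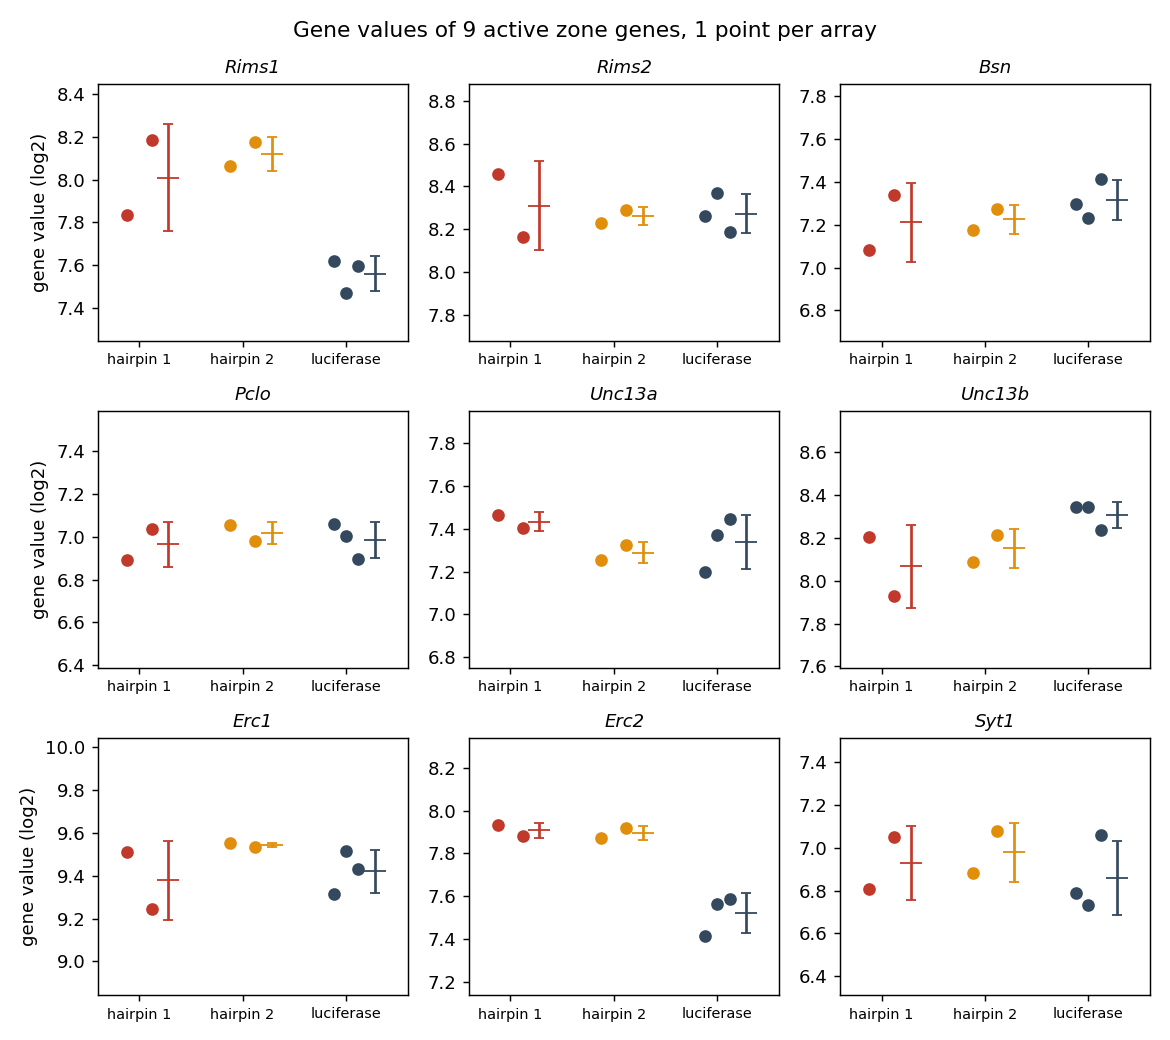
Gene values (log2, median of probe sets above 6.02) of the 9 active zone genes, 1 panel per gene and 1 point per array, with hairpin 1, hairpin 2 and luciferase from left to right; the bar beside the points is the mean ± SD, and every panel's axis spans the same number of log2 units. In the Rims1 and Erc2 panels every knockdown point lies above every luciferase point, and in the Unc13b panel every one lies below.

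The limma fit over all 16353 genes, at an adjusted p below 0.05, called Rims1 and Erc2 upward for the mean of both hairpins. That is 2 of the 9 upward and 0 downward, beside 5.53% of all genes upward and 2.37% downward. The genes were chosen in this contrast, so the count describes the choice. With each array centred on its median the same fit called 696 genes up and 703 down, in place of 904 up and 388 down, and Rims1 and Erc2 then stood 0.45 and 0.32 above luciferase. The median difference over the 9 genes was 0.02, beside 0.00045 over all genes. The Rims1 call was lost without hairpin 2 replicate 2, where the difference was 0.47, without luciferase replicate 2, where it was 0.46, and without luciferase replicate 3 and hairpin 1 replicate 2 together, where it was 0.43. Without hairpin 1 replicate 2 the hairpin 1 difference of Rims1 was 0.27, and a median polish over its probe sets in place of the median gave 0.33 for both hairpins. In the main fit, hairpin 1 alone gave a call of Erc2 but not of Rims1, and hairpin 2 alone of Rims1 but not of Erc2. That is 1 of the 9 upward and 0 downward with each hairpin, where 3.97% and 2.71% of all genes were called upward. Both calls were lost under most of the 18 alternatives, and these counts too describe the choice of genes.

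The 47 Rims1 probe sets did not move together. In 21 of them the knockdown mean exceeded luciferase by more than 0.5, with differences of 0.58 to 1.14 and a median of 0.89. Another 4 lay between 0.25 and 0.5, 18 lay within 0.25 of 0, and 4 lay between -0.41 and -0.25. In 22 of the 47 all knockdown arrays exceeded all luciferase arrays, and in 0 they were all below, where 9.91% and 5.43% of all named probe sets were so placed. Of all named probe sets, 4.64% had a difference above 0.5. At the bound of 0.5, probe set 5106267 stood inside at 0.58 and probe set 5504052 outside at 0.48.

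**Figure D2:**
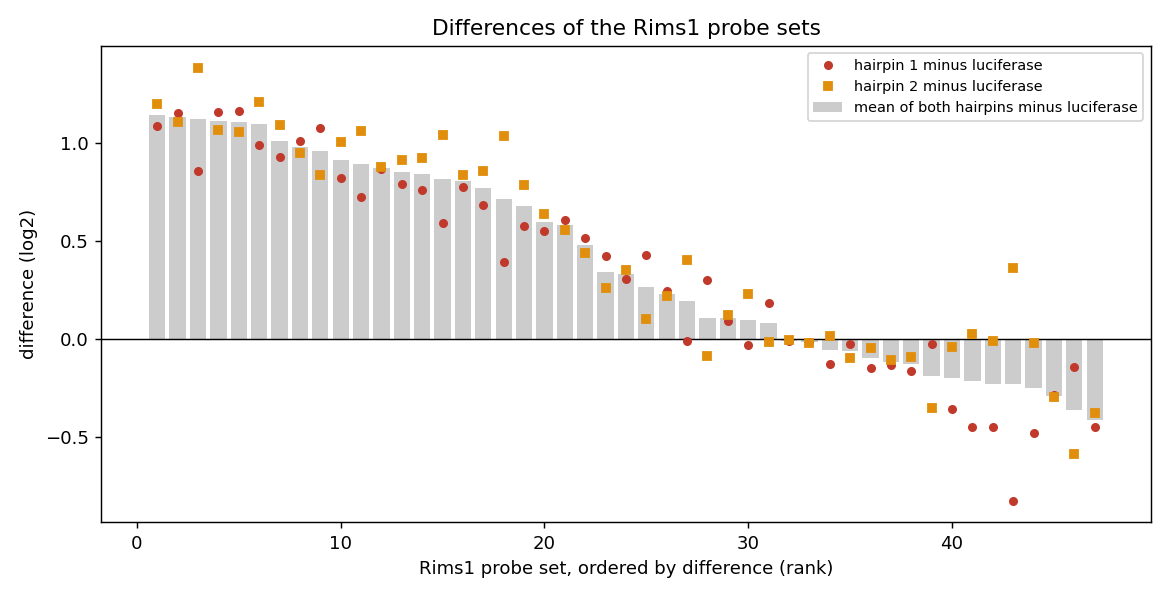
Differences (log2) of the 47 Rims1 probe sets from luciferase, ordered by the mean of both hairpins (grey bars), with hairpin 1 as circles and hairpin 2 as squares. The 21 probe sets at the left exceed 0.5, and the bars then fall through 0 to -0.41 at the right.

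The largest difference belonged to probe set 4625391, with 7.23 and 7.70 under hairpin 1 and 7.50 and 7.65 under hairpin 2, against 6.44, 6.15 and 6.54 under luciferase. That is 1.14 on the log2 scale, or 2.21-fold. Probe set 4921904 had 8.42 and 8.49 under hairpin 1 and 8.52 and 8.72 under hairpin 2, against 7.51, 7.53 and 7.56 under luciferase. Its 3 control values span less than 0.05 and all knockdown values lie clear of them. Probe set 5329399 had 10.12 and 10.18 under hairpin 1 and 10.09 and 10.22 under hairpin 2, against 9.18, 9.22 and 9.44 under luciferase, a difference of 0.87. In probe set 5072723 the values were 7.69 and 7.45 under hairpin 1 and 8.15 and 8.05 under hairpin 2, against 6.66, 6.76 and 6.74 under luciferase. The fit of single probe sets called these last 3 of the 47 upward, beside 0.19% of 311384, and with any 1 of the 7 arrays left out it called 0 of the 47 and 0 of all 311384. The 10 probe sets with the largest differences do not include 5329399. Those of the 10 not yet named, 4710305, 4377800, 5481412, 4806821, 5140748, 4421161 and 4476543, stood 1.13, 1.11, 1.11, 1.10, 0.98, 0.96 and 0.91 above luciferase.

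Bright Rims1 probe sets are also found among those near 0. Probe set 5138183, bright on every array, had 10.27 and 10.32 under hairpin 1 and 10.21 and 10.25 under hairpin 2, against 10.22, 10.39 and 10.37 under luciferase, a difference of -0.06. Probe sets 5245682, 5137247 and 4348579 differed by -0.06, -0.12 and 0.10. Their knockdown and luciferase values overlap. The lowest difference, -0.41, belonged to probe set 5027474, with 6.13 and 7.09 under hairpin 1 and 6.88 and 6.48 under hairpin 2, against 7.31, 6.91 and 6.97 under luciferase.

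Taken by array, the median of the 21 probe sets was 8.26 and 8.19 with hairpin 1 and 8.13 and 8.35 with hairpin 2, against 7.33, 7.42 and 7.39 with luciferase. The median of the other 26 was 7.20 and 7.37 with hairpin 1 and 7.64 and 7.56 with hairpin 2, against 7.63, 7.41 and 7.69 with luciferase. The 21 were chosen by their difference, so the gap between their medians follows from that choice. The signs and the lack of overlap given next follow from it in large part, and nothing is read from them. How many of all probe sets with a difference above 0.5 had no overlap with luciferase was not counted. Each of the 21 exceeded luciferase in both hairpin groups, by 0.39 to 1.16 for hairpin 1 and by 0.56 to 1.38 for hairpin 2, and 20 of them did not overlap with luciferase. The outlying one, the dim probe set 5608192, had 6.24 and 5.59 under hairpin 1 and 6.51 and 6.61 under hairpin 2, against 5.84, 5.61 and 5.12 under luciferase.

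**Figure D3:**
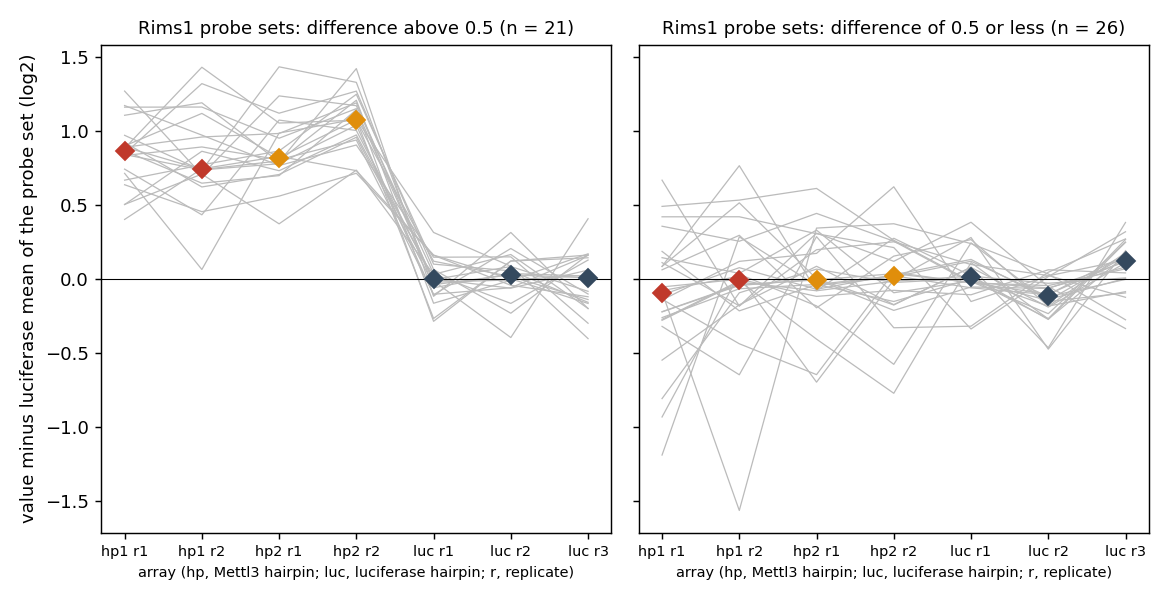
Each grey line is 1 Rims1 probe set, as its value on each array minus its luciferase mean (log2); diamonds are the median over probe sets, and arrays run from hairpin 1 through hairpin 2 to luciferase. The left panel holds the 21 probe sets chosen for a difference above 0.5, the right panel the other 26, whose medians stay near 0 in every array.

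Differences among kept probe sets of Rims1 had an SD of 0.51, at percentile 99.9 of the 3698 genes with at least 20 kept probe sets, whose median SD was 0.157. In the test of exon usage, which asks whether the probe sets of a gene differ in their response, Rims1 ranked number 2 of 16353 genes. That rank uses the contrast in which the genes were chosen and is a description. The test called 1 of the 9, Rims1, at an adjusted p below 0.05, beside 4.97% of all genes, and it called 2 of the 9 when hairpin 1 replicate 1 or hairpin 1 replicate 2 was left out or under the stricter filter on dim probe sets. Pclo followed with an SD of 0.264, at percentile 94.7, and the other members with at least 20 kept probe sets ranged from 0.164 to 0.192. Which exons or transcript forms the Rims1 probe sets stand for was not analysed here.

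Erc2, the CAST scaffold that binds RIM, had gene values of 7.93 and 7.88 with hairpin 1 and 7.87 and 7.92 with hairpin 2, against 7.42, 7.57 and 7.59 with luciferase. The 4 knockdown arrays lay close together and above every luciferase array, where 13.4% of all genes had all knockdown arrays above luciferase. Both hairpins together stood 0.38 ± 0.08 (SE) above luciferase, a 1.30-fold difference, with 0.39 for hairpin 1 and 0.37 for hairpin 2. The value rested on 16 of 25 probe sets, since 9 were dimmer than 6.02. All knockdown arrays exceeded all luciferase arrays in 3 of the 25 and were all lower in 0, beside 9.91% and 5.43% of all named probe sets. Those 3, all kept, were 5478257, 5499853 and 5254711, at 0.73, 0.54 and 0.50.

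Within Erc2 the highest difference, 1.13, and the lowest, -0.22, both came from dim probe sets, 5148551 and 4687321. Probe set 4745443, bright on every array, had 10.66 and 10.52 under hairpin 1 and 10.56 and 10.59 under hairpin 2, against 10.59, 10.79 and 10.70 under luciferase, and did not separate the groups. With a stricter filter, probe set means above 7.57, the Erc2 difference was 0.16, and a median polish gave 0.22; neither was called. The call was also lost when hairpin 1 replicate 1, hairpin 2 replicate 2 or luciferase replicate 1 was left out, at differences of 0.37, 0.37 and 0.33, and without luciferase replicate 3 and hairpin 1 replicate 2 together, at 0.42.

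Erc1, the ELKS paralogue that is made in most tissues, had gene values of 9.51 and 9.25 with hairpin 1 and 9.55 and 9.54 with hairpin 2, against 9.32, 9.51 and 9.43 with luciferase. The groups overlap and the difference was 0.04 ± 0.09 (SE). In 9 of its 35 probe sets all knockdown arrays exceeded all luciferase arrays and in 0 they were all lower, beside 9.91% and 5.43% of all named probe sets; the same 2 shares stand beside the counts of the genes that follow. The extremes were the dim probe sets 5601248 at 0.58 and 4322464 at -0.29.

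Unc13b, which encodes the priming factor Munc13-2, had gene values of 8.21 and 7.93 with hairpin 1 and 8.09 and 8.21 with hairpin 2, against 8.34, 8.34 and 8.24 with luciferase. All knockdown arrays lay below all luciferase arrays, though 8.21 and 8.24 nearly meet, and 8.4% of all genes were so placed. The difference was -0.20 ± 0.09 (SE), with -0.24 for hairpin 1 and -0.16 for hairpin 2, and under the stricter filter it was -0.27. Of its 58 probe sets, 14 had all knockdown arrays below luciferase and 0 had them above, where 5.43% and 9.91% of all named probe sets did. Probe set 4946593 was the lowest at -0.49, with 8.41 and 7.75 under hairpin 1 and 7.99 and 8.39 under hairpin 2, against 8.70, 8.52 and 8.66 under luciferase. The highest, the dim probe set 4598813, stood at 0.43.

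Unc13a, the gene of Munc13-1, gave 7.46 and 7.40 with hairpin 1 and 7.25 and 7.32 with hairpin 2, against 7.20, 7.37 and 7.45 with luciferase. Those values interleave, and the difference was 0.02 ± 0.08 (SE). Its probe sets ran from -0.60 (4577949) to 0.58 (4874516, dim), with 1 of 59 clear of luciferase upward and 3 downward.

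Rims2, the paralogue of Rims1, gave 8.46 and 8.16 with hairpin 1 and 8.23 and 8.29 with hairpin 2, against 8.26, 8.37 and 8.19 with luciferase. Its difference was 0.01 ± 0.09 (SE), with a 95% interval of -0.20 to 0.22. The highest of its probe sets was the dim 4534246 at 0.52 and the lowest 5615609 at -0.48, and 2 of 49 were clear of luciferase upward and 2 downward.

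Among the large scaffolds, Bsn gave 7.08 and 7.34 with hairpin 1 and 7.18 and 7.27 with hairpin 2, against 7.30, 7.23 and 7.42 with luciferase. Pclo gave 6.89 and 7.04 with hairpin 1 and 7.05 and 6.98 with hairpin 2, against 6.89 to 7.06 with luciferase. Both overlap between groups, with differences of -0.10 ± 0.09 and 0.01 ± 0.08 (SE). Knockdown arrays were clear of luciferase downward in 7 of 42 Bsn probe sets and upward in 0, and downward in 5 and upward in 2 of 50 for Pclo. The extremes of Bsn were 4966504 (dim) at 0.65 and 5370586 at -0.58, and those of Pclo were 4545033 at 0.57 and 5257367 at -0.72, both dim.

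Syt1, the calcium sensor, gave 6.81 and 7.05 with hairpin 1 and 6.88 and 7.08 with hairpin 2, against 6.79, 6.73 and 7.06 with luciferase. The difference was 0.09 ± 0.11 (SE) with overlapping groups. Its probe sets ran from -0.51 (4621709) to 1.05 (5349702, dim). Knockdown arrays were clear of luciferase upward in 2 of 24, one of them probe set 5532634, chosen for naming after its values were seen, with 6.66 and 6.66 under hairpin 1 and 6.53 and 6.46 under hairpin 2, against 5.94, 5.95 and 5.31 under luciferase.

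**Figure D4:**
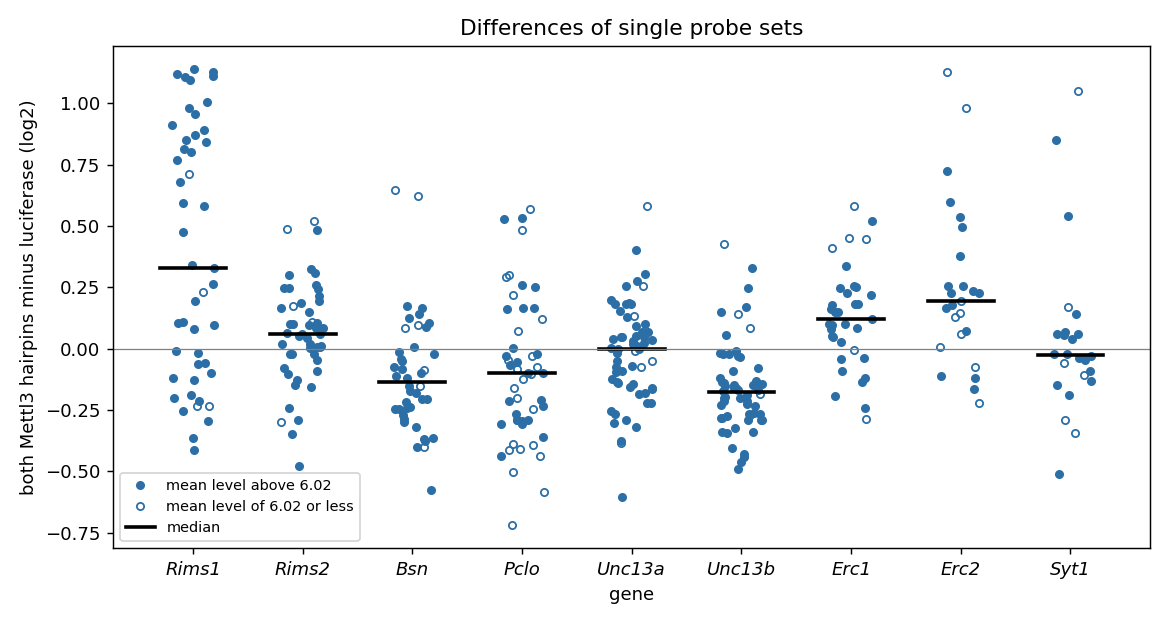
Difference of each of the 389 probe sets (both hairpins minus luciferase, log2) by gene; filled points have a mean level above 6.02, open points do not, and the black bar is the median. Rims1 has 21 points between 0.58 and 1.14, all but 1 of them filled, and a further group near 0, while the highest points of Bsn, Erc1, Erc2 and Syt1 are open.

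In the 342 probe sets of the 8 genes other than Rims1, the limma fit called 0 at an adjusted p below 0.05 and 48, or 14%, at an unadjusted p below 0.05, beside 44807 of all 311384 named probe sets, or 14.4%. Knockdown arrays were clear of luciferase upward in 19 of the 342 and downward in 31, where 9.91% and 5.43% of all named probe sets were. The share of all named probe sets called in either direction was 0.259%.

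Which measured values chose the genes is not stated in full, and the tests of hairpin 1 against hairpin 2 hold only if that contrast was not among them. Rims1 differed between the hairpins by -0.11, with a 95% interval of -0.40 to 0.18 and an adjusted p of 0.871 in limma. Erc2 differed by 0.01, with an interval of -0.22 to 0.24 and an adjusted p of 0.989. Over the 9 genes the differences ran from -0.17 for Erc1 to 0.14 for Unc13a, with adjusted p-values from 0.757 to 0.989. Of the 9 genes limma called 0, and 0 had an unadjusted p below 0.05, where 0.104% of all genes were called. Differences within these intervals remain possible.

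For single probe sets of the 9 genes, hairpin 1 against hairpin 2, limma called 0 of 389 and 29, or 7.46%, had an unadjusted p below 0.05. Of all 311384 it called 0, and 19899, or 6.39%, had an unadjusted p below 0.05. The hairpins lay on opposite sides of every luciferase array in 3 of the 389 (0.771%), beside 0.858% of all named probe sets. In the exon usage test of the same contrast 3 of 9 genes had an unadjusted p below 0.05, a threshold at which all genes were not counted. Of the 9 genes 0 were called, where 0.055% of all genes were called. The adjusted p of Rims1 there was 1.

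The wider machinery of vesicle release was read from a list of 71 other genes, of which 67 were on the array under a single symbol and 65 had a gene value. In the comparison of both hairpins with luciferase, 5 of the 65 rose and 1 fell, and their median difference was -0.01. Those shares stand beside the 5.53% and 2.37% of all genes given above. All 4 knockdown arrays exceeded luciferase in 14 of the 65 and were lower in 7, where 13.4% and 8.4% of all genes were so placed. For hairpin 1 alone 3 rose and 2 fell, where 3.97% and 1.93% of all genes did, and for hairpin 2 alone 3 rose and 0 fell, where 2.71% and 1.08% did.

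Syt11, a synaptotagmin that does not bind calcium, had 8.23 and 8.14 with hairpin 1 and 8.19 and 8.09 with hairpin 2, against 7.37, 7.47 and 7.28 with luciferase. It rose by 0.79 ± 0.08 (SE; limma adjusted p = 0.000711), and it passed under each of 17 alternatives. The list was chosen with earlier results of these data known, so the values and calls of its genes in this contrast are a description. Snap25, the plasma membrane SNARE, had 7.59 and 7.33 with hairpin 1 and 7.29 and 7.28 with hairpin 2, against 6.46, 6.86 and 6.69 with luciferase, and rose by 0.70 ± 0.11 (SE). Stxbp5, the gene of tomosyn, which holds back SNARE assembly, rose by 0.57 ± 0.10 (SE), and Rab3b, a vesicle GTPase that RIM proteins can bind, by 0.41 ± 0.08 (SE). Cacnb3, a calcium channel beta subunit, rose by 0.31 ± 0.08 (SE), close to the threshold. Nsf, the ATPase that takes SNARE complexes apart, had 10.61 and 10.37 with hairpin 1 and 10.76 and 10.86 with hairpin 2, against 11.17, 11.15 and 11.01 with luciferase, and fell by 0.46.

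Snap25 stood at 0.24 with probe sets limited to means above 7.57 and was then not called, and Stxbp5 stood at 0.26 and was called. Without the filter on dim probe sets Snap25, Stxbp5 and Nsf were not called, at 0.90, 0.51 and -0.38. Stxbp5 was called without each array in turn. Rab3b lost its call without hairpin 1 replicate 1, hairpin 2 replicate 2, luciferase replicate 1 or luciferase replicate 3, at 0.36, 0.37, 0.39 and 0.41, and without luciferase replicate 3 and hairpin 1 replicate 2 together, at 0.45. The call was also lost for Nsf without luciferase replicate 1 at -0.43, and for Cacnb3 without each of the 7 arrays, at 0.27 to 0.36, and without the 2 arrays together, at 0.36. No list gene differed between the hairpins at an adjusted p below 0.05 in limma. At an unadjusted p below 0.05, 5 of 65 did, a threshold at which all genes were not counted.

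**Figure D5:**
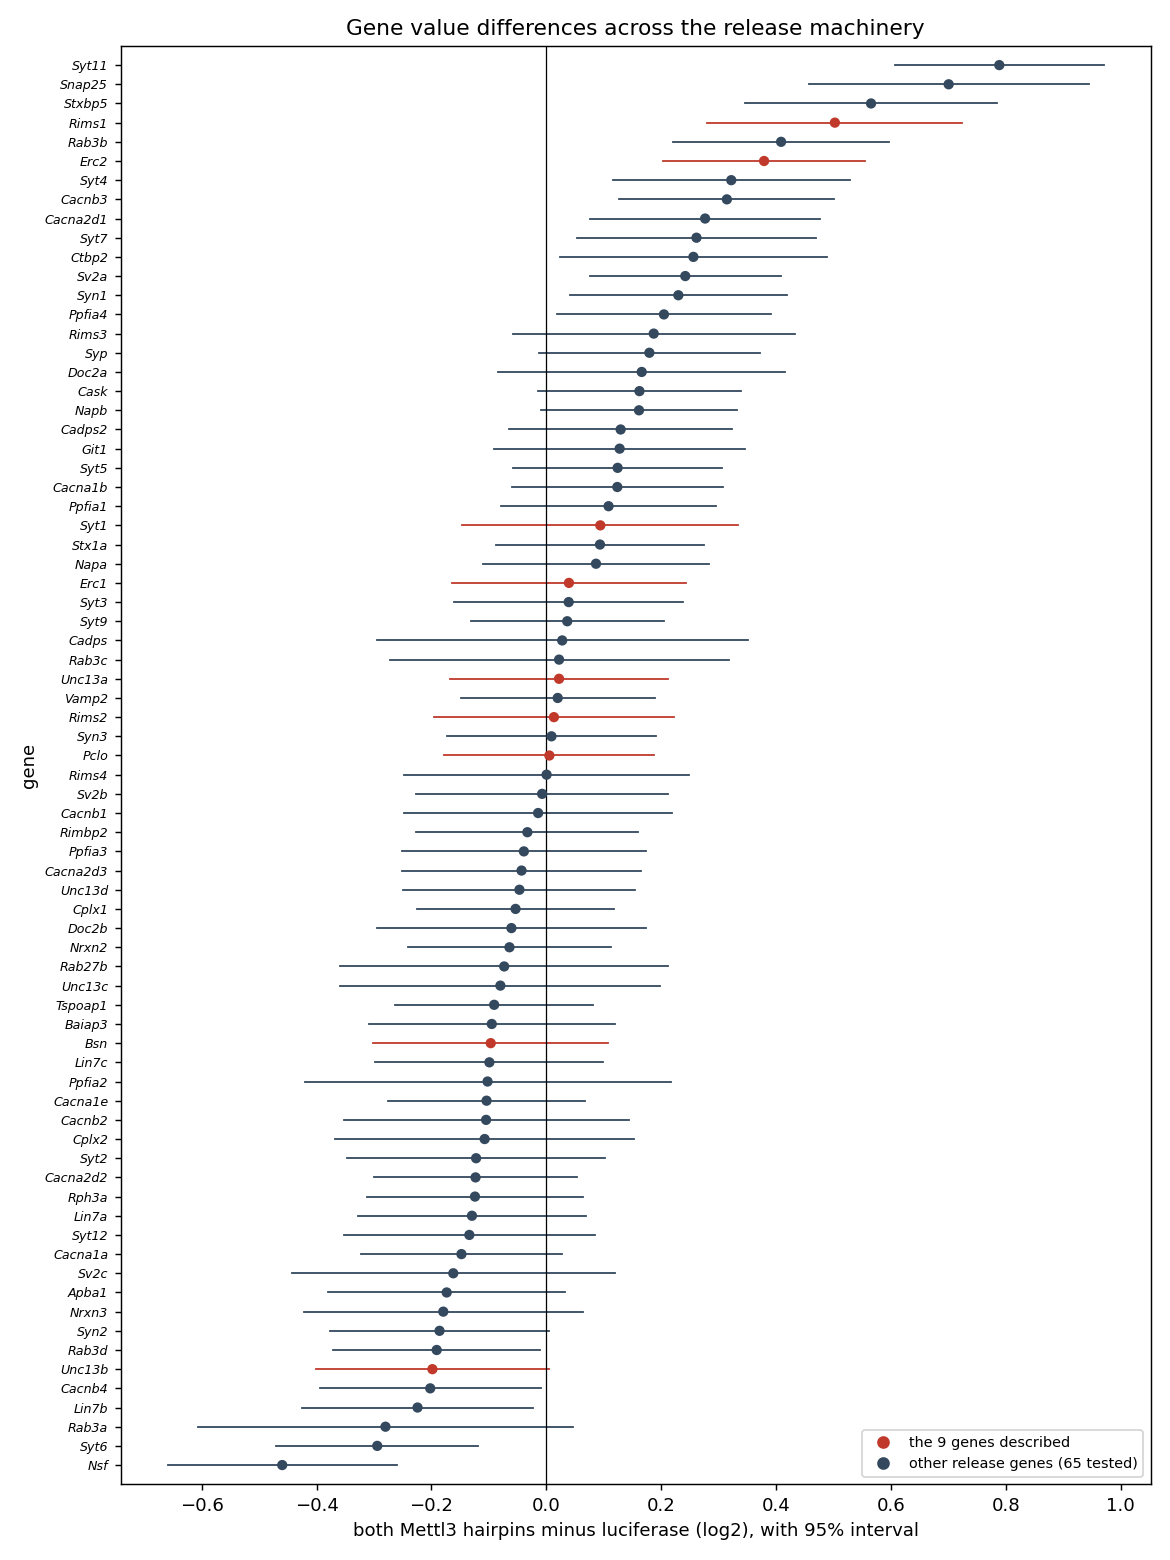
Difference of the gene value (both hairpins minus luciferase, log2, with its 95% interval) for the 9 genes described (red) and 65 other genes of the active zone and of vesicle release (dark), ordered from highest to lowest. Rims1 and Erc2 lie near the top beside Syt11, Snap25, Stxbp5 and Rab3b, Nsf lies at the bottom, and the other members lie among genes near 0.

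Markers of neurons and of other cell types are given here beside Rims1. Of 15 neuronal markers, 13 had a gene value and 5 rose, where 5.53% of all genes did: Ina by 1.30, Map2 by 0.77, Snap25 by 0.70, Nefl by 0.60 and Elavl3 by 0.34. The mean level of the 13 was 8.71 to 8.82 in knockdown arrays and 8.42 to 8.46 in luciferase arrays. The Elavl3 call was lost without any 1 array other than hairpin 1 replicate 2, at 0.32 to 0.38, and without luciferase replicate 3 and hairpin 1 replicate 2 together, at 0.36. Nefl stood at 0.26 with a mean in place of the median and was called. Tubb3 stood at 0.29, Gad1 at 0.25, Syn1 at 0.23, Elavl4 at 0.16 and Gap43 at 0.08 without passing. Slc17a6 at -0.07, Nefm at -0.13 and Stmn2 at -0.25 did not pass either, and Dcx and Rbfox3 had no gene value. All knockdown arrays lay above luciferase in 7 of the 13 and below in 1, where 13.4% and 8.4% of all genes were so placed. The 10 markers of embryonic stem cells had mean levels of 11.89 to 12.06 in knockdown arrays and 11.97 to 12.11 in luciferase arrays. Limma called 0 of them, where it called 7.9% of all genes. At an unadjusted p below 0.05, where all genes were not counted, 1 passed. All knockdown arrays lay above luciferase in 0 of the 10 and below in 3, beside the same 13.4% and 8.4% of all genes. Those 3 were Dppa5a at -0.27, Nanog at -0.08 and Tdgf1 at -0.07. Among 4 measured markers of neural progenitors Nes rose by 0.46 and Sox1 fell by 0.39, where 5.53% of all genes rose and 2.37% fell. Pax6 at 0.27 and Neurog2 at -0.15 did not pass. Nes stood at -0.15 under the stricter filter and lost its call without hairpin 1 replicate 1, hairpin 2 replicate 2, luciferase replicate 2 or luciferase replicate 3, at 0.41 to 0.42, and Sox1 lost its call without any 1 array other than hairpin 2 replicate 2, at -0.44 to -0.30. Without luciferase replicate 3 and hairpin 1 replicate 2 together neither was called, at 0.45 and -0.46. Of 8 measured fibroblast markers, kept for feeder cells, 2 rose and 0 fell, beside 5.53% and 2.37% of all genes. Acta2 rose by 1.07 and Tagln by 0.78. Col3a1 at -0.07, Col1a1 at -0.11, Dcn at -0.13, Thy1 at -0.14, Postn at -0.15 and Col1a2 at -0.18 did not pass. Tagln stood 1.19 above luciferase with hairpin 1 and 0.36 above with hairpin 2, and the difference between the hairpins, 0.83, had a limma adjusted p of 0.0438 and was called under 3 of 17 alternatives and in none of the fits that left out 1 array or those 2 arrays. Without the filter on dim probe sets Tagln, at 0.77, was not called for both hairpins, nor were Elavl3, Nes and Sox1. The mean level of the 8 fibroblast markers was 7.58 and 7.64 with hairpin 1 and 7.34 and 7.29 with hairpin 2. With luciferase it was 7.33, 7.31 and 7.35. The part of other cell types in the Rims1 and Erc2 values was not tested.

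Genes nearest to Rims1 in pattern over the 7 arrays were looked for among 3936 genes whose SD over arrays was at least 0.2. They were Ube2e2, a ubiquitin-conjugating enzyme (Pearson r = 0.976), Samd10 (0.967), Shf, an SH2 domain adaptor (0.963), Mxra8 (0.961) and Sntb1, a syntrophin (0.957). All 5 had every knockdown array above every luciferase array, and these arrays fall into the knockdown and luciferase groups, which all such correlations share. Their differences were 0.37, 0.40, 0.43, 0.51 and 0.40. No other active zone gene was among them, but genes with an SD over arrays below 0.2 could not be, so nothing is read from that.

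On the chromosomes, the measured neighbours of Rims1 and Erc2 gave no call. Kcnq5, a potassium channel gene and the neighbour of Rims1 on chromosome 1 in the RefSeq order, had a difference of 0.09 ± 0.10 (SE). Around Erc2 on chromosome 14, Ccdc66 had 0.12 ± 0.09 and Wnt5a, a secreted signalling protein, -0.13 ± 0.07 (SE). The neighbour of Rims1 on the other side, Ppp1r14bl, had no gene value, nor did the predicted genes that overlap Erc2. No gene of the RefSeq table overlaps Rims1.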

How the data were processed

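The deposited values are log2 intensities of probe sets after RMA, which with R 2.11.1 is named in the submitters' processing notes; per the labels, the arrays are Affymetrix Mouse Exon 1.0 ST. Per the sources used here, the probe set definition, its build and any filter are not stated. Symbols came from the platform annotation: of 1201338 probe sets, 311384 had 1 symbol, 6385 several and 883569 none, and 45560 older symbols were updated through RefSeq. For 16353 genes the gene value went into a limma model (version 3.58.1, R 4.3.3) with 1 mean per group over the 7 arrays and eBayes; single probe sets were fitted without a filter on dim values, and exon usage with diffSplice. Calls used Benjamini-Hochberg adjusted p-values below 0.05 over all features. Because RMA equalises the arrays, a change shared by most transcripts is hidden. Named are all 9 members, each one's highest and lowest probe set, up to 10 of Rims1, and of the release list up to 4 called genes per direction; Cacnb3 and further probe sets were named after their values were seen. The members and lists were chosen with earlier results of these data known. The fits were also run on simulated data with independent errors, and no call rests on that run. Alternatives were other filters, summaries, scalings and spread models, a replicate block, the 2 compared groups alone and leaving out arrays.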

Additional observations from a re-analysis of the deposited data

Results flagged for a closer look

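In 3 probe sets the arrays of the 2 hairpins lay on opposite sides of all luciferase arrays, at a share given above that is close to that of all named probe sets. Erc1 probe set 4994273 had 7.78 and 8.14 under hairpin 1 and 7.29 and 7.13 under hairpin 2, against 7.50, 7.50 and 7.51 under luciferase, and hairpin 1 minus hairpin 2 was 0.75 (limma adjusted p = 0.611). Rims2 probe set 4495517, which is dim, had 4.59 and 4.65 under hairpin 1 and 5.22 and 5.71 under hairpin 2, against 4.92, 4.93 and 4.75 under luciferase, a difference of -0.84 between the hairpins (limma adjusted p = 0.611). Unc13b probe set 4526354, also dim, had 4.95 and 5.37 under hairpin 1 and 3.37 and 4.25 under hairpin 2, against 4.82, 4.39 and 4.79 under luciferase, a difference of 1.35 (limma adjusted p = 0.632). None of the 3 passed the threshold.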

How the results depend on the processing

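Recomputed under the alternatives were the 9 members and the 14 list genes Syt11, Snap25, Stxbp5, Rab3b, Cacnb3, Nsf, Ina, Map2, Nefl, Elavl3, Nes, Sox1, Acta2 and Tagln. Of those called for both hairpins, Nes alone changed sign, to -0.15 under the stricter filter on dim probe sets. With the replicate block the calls of Rab3b, Cacnb3, Elavl3, Nes and Sox1 were lost, and with the crossed block that of Stxbp5 as well. The Rims1 difference for both hairpins, 0.50, kept its sign under all 17 alternatives (0.33 to 0.59) and missed the threshold under 6: 0.47 without a filter on dim probe sets, 0.52 with the replicate block, 0.52 with the block after crossing the hairpin 2 numbers, 0.43 without luciferase replicate 3 and hairpin 1 replicate 2 together, and 2 of the 7 fits that each left out 1 array (0.41 to 0.59). The crossed block and the joint removal of those arrays were chosen after seeing the data. The number of members called, 2, was 0 without the dim filter, 1 with a median polish, 0 with the block, 0 with the crossed block, 0 without the 2 arrays, and 0 to 2 leaving out 1 array. Same-numbered arrays of the 2 hairpins deviated from their group means with a correlation of -0.177. With 2 arrays per hairpin, crossing the hairpin 2 numbers can only flip its sign, to 0.177. Whether the replicate numbers pair the arrays cannot be told from these values.

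Gene calls for both hairpins (1292) were 484 without the dim filter, 2840 with means, 2469 with a median polish, 540 with the block, 542 with the crossed block, 705 without the 2 arrays and 605 to 1098 leaving out 1 array. For hairpin 1 (964) they were 320 without the filter, 1503 with the stricter filter, 2259 with means, 2072 with a median polish, 460 and 389 with the block and the crossed block, 266 without the 2 arrays and 271 to 729 leaving out 1. For hairpin 2 (619) they were 92, 1073, 1626, 1439, 208, 151 and 317 in that order, and 63 to 577 leaving out 1. Between the hairpins (17) they were 0 without the filter, 34 with the stricter filter, 79 with means, 76 with a median polish, 29 with an intensity trend, 3 with the block, 0 with the crossed block, 0 without the 2 arrays and 0 to 4 leaving out 1.

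Exon usage calls for both hairpins (813) were 261 with the block, 424 with the crossed block and 281 to 944 leaving out 1 array; between the hairpins (9) they were 67 without the filter, 2 with the block, 4 with the crossed block and 0 to 410 leaving out 1. Probe set calls (805) were 8989 with the stricter filter, 10304 with an intensity trend, 0 with the block and 0 in each fit without 1 array; Rims1 then had 13, 18, 0 and 0 called probe sets. Rims1 probe sets with a difference above 0.5 numbered 21 to 22 throughout, except 13 under the stricter filter, which tests fewer. Causes of these shifts were not tested, and few arrays and dim probe sets limit the precision.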
